A study of Mus musculus with 4 samples.

Results

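Chromosome 11 of the mouse carried 3090 of the 25957 unique H3K27me3 intervals (peaks) listed for GL261, a mouse glioblastoma cell line: 925 of 9866 in the list from control cells and 2165 of 16091 in the list from irradiated cells. The members were all intervals whose first column named chromosome 11 in the mm10 build, 1 per start and end, at any strength. The chromosome was chosen by the number of its intervals and their ratio between the lists in earlier results of the same data, so both are given as a description. The 2 groups were GL261 cells labelled Con, called control here, and GL261 cells labelled IR, called irradiated from the title of the series. Both were grown in the same serum-containing medium, fixed and precipitated with the same antibody against H3K27me3, and each had 1 library. An input library of each condition was not analysed here by itself. No source used here gives the radiation dose, the time of harvest or any treatment of the control cells. GL261 is a single transplantable line, and peak lists hold no expression values, so the labelled cell type was not checked against its markers. With 1 library per group there was no replicate error, no test between the conditions was made, and all intervals of error are exact 95% intervals that cover counting error only. The libraries cannot be told apart from the conditions.

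H3K27me3 is the trimethylation of lysine 27 of histone H3. Polycomb repressive complex 2 writes it through its catalytic subunits Ezh1 and Ezh2, and proteins of the Cbx family in Polycomb repressive complex 1 can read it. In mammalian cells the mark is known for covering unmethylated CpG-rich promoters of silent developmental regulators, and for spreading as low, broad domains over silent chromatin between active genes. Mouse chromosome 11 holds several gene groups that bear on this, among them the Hoxb cluster, the alpha globin locus, chemokine, keratin and olfactory receptor clusters, and the genes of several Polycomb proteins.

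Promoter sequences show what kind of gene start lay under a listed interval. RefSeq promoter windows of GRCm38.p6, the assembly of mm10, run from 250 bases before to 50 bases after a gene start, and 2289 windows of 1865 genes lay on chromosome 11. Of these, 8 overlapped a control interval and 27 an irradiated interval, which is 0.349% and 1.18% of all windows. The sequences below are those of 5 protein-coding genes whose window met an irradiated interval and, for contrast, of Lhx1, a homeobox gene of kidney and head development whose window met none. They were chosen after the values were seen. Capitals mark CG dinucleotides, the sites of CpG methylation.
Gm12253, chr11:58432309-58432608, plus strand: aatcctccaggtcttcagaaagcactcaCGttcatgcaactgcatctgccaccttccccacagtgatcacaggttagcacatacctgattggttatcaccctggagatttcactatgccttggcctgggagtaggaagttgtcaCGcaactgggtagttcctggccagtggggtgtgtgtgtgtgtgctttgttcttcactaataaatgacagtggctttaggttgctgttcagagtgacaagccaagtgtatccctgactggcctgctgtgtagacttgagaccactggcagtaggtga
Olfr311, chr11:58840866-58841165, plus strand: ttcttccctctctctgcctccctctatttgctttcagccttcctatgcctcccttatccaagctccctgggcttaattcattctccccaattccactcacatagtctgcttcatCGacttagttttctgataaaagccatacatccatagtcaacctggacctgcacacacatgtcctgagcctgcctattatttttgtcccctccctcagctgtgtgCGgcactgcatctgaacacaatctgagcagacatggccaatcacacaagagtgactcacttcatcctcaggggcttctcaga
Fabp6, chr11:43601513-43601812, minus strand: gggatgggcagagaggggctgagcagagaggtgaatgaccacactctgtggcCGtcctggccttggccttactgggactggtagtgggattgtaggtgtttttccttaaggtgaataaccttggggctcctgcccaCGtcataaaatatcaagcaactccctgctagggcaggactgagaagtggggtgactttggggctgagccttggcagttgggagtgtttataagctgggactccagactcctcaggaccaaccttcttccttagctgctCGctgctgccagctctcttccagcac
Il5, chr11:53720544-53720843, plus strand: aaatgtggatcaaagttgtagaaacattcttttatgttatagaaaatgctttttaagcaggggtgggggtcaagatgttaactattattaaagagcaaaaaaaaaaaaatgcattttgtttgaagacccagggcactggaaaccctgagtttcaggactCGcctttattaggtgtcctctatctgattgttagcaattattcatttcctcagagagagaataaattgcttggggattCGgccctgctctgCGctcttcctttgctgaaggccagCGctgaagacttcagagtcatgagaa
Ccl9, chr11:83578587-83578886, minus strand: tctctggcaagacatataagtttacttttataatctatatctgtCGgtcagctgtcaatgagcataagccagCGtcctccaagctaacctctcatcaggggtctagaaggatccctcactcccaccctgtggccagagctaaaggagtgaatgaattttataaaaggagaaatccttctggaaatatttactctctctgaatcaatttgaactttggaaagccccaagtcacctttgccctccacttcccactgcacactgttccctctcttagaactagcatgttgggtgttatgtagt
Lhx1, chr11:84525485-84525784, minus strand: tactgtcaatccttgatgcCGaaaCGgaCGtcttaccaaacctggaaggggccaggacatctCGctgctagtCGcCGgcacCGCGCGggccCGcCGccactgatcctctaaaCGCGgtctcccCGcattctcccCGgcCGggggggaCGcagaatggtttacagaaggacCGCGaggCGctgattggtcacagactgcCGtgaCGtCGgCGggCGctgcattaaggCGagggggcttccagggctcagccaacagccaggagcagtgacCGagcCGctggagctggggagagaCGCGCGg
Gm12253, a predicted gene, had its whole window inside the irradiated interval 58432099 to 58433194, with 17 reads, a fold of 6.11 at a q of 0.000173. Olfr311 encodes an olfactory receptor, and 224 of its 300 bases lay in an irradiated interval with 15 reads, a fold of 5.46 at a q of 0.00171. Fabp6, the ileal bile acid binding protein gene, was covered over 300 bases with a fold of 3.82 at a q of 0.149. Il5, the gene of the eosinophil growth factor interleukin 5, was covered over 50 bases and Ccl9, a chemokine gene, over 98 bases, each with a fold of 3.84 at a q of 0.149. These 5 windows held 2 CG in Gm12253, 2 in Olfr311, 3 in Fabp6, 4 in Il5 and 2 in Ccl9, against 31 in Lhx1. The contrast with Lhx1 is a wide one. Other windows without an interval held fewer, with 10 in Hoxb1, 8 in Tbx4 and 4 in Hba-a1, and Pyy, under an irradiated interval, held 8 per window. The nearest control interval lay 14.0 kb from the start of Lhx1 and the nearest irradiated interval 4.95 kb.

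CpG-poor starts made up most of the starts under intervals on this chromosome. The median number of CG per window was 10 over all windows, 3 over the 8 under a control interval and 2 over the 27 under an irradiated interval. At least 10 CG were found in 50.8% of all windows (1162 of 2289), in 0 of the 8 control windows (interval 0 to 36.9%) and in 1 of the 27 irradiated windows (3.70%, 0.0937 to 18.97%). That window belongs to Gm51935, a predicted RNA gene with 11 CG, under an irradiated interval with a fold of 4.94 at a q of 0.00459. Within 2000 bp of a start the pattern was the same in direction: 1.69% of 59 windows near a control interval and 9.43% of 106 near an irradiated interval (4.62 to 16.7%) held at least 10 CG. No motif was searched besides CG. Windows of 1 gene overlap in some cases, so they are not independent.

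Intervals on chromosome 11 were narrow and mostly weak in both lists. The fold is the authors' enrichment at the summit over the local background, and the q is their p adjusted over the genome. It is not the plain ratio of the recovered reads to the recovered background given here. Control intervals had a median width of 359 bp and covered 374 kb, and irradiated intervals had a median width of 367 bp and covered 920 kb. Control folds had a median of 3.29 (quartiles 2.98 and 3.74) and irradiated folds one of 3.56 (3.19 and 4.16), on scales set separately for each list. From fold and p, a median of 9 ChIP reads per control summit (quartiles 8 and 11) and of 11 per irradiated summit (10 and 13) was recovered. A q of at most 0.05 was reached by 33 control intervals (3.57%, 2.47 to 4.97) and 294 irradiated intervals (13.6%, 12.2 to 15.1). On all other chromosomes these shares were 7.18% (6.65 to 7.74) and 15.5% (14.9 to 16.1), so the control intervals of chromosome 11 reached this q less often than the rest of their list, beyond counting error.

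The irradiated list was the longer one on chromosome 11. The ratio of irradiated to control intervals was 2.34 (2.17 to 2.53), against 1.56 (1.52 to 1.60) on all other chromosomes together. Chromosome 9 had a higher ratio, 2.48, and chromosomes 7, 2 and 17 followed with 2.18, 2.11 and 2.11, so the value is not particular to chromosome 11. On intervals with a q of at most 0.05 it was 8.91 (6.20 to 13.2), against 3.36 (3.08 to 3.68). When the irradiated list was cut to the length of the control list by p, 1291 irradiated intervals remained on chromosome 11 and the ratio was 1.40 (1.28 to 1.52), against 0.959 (0.931 to 0.988) elsewhere. The recovered background moved with the list: 18.1% of control intervals (15.6 to 20.7) and 30.5% of irradiated intervals (28.6 to 32.5) on chromosome 11 lay over a recovered background of at least 1.5 times the lowest of their list, against 14.6% and 25.7% elsewhere. Without these intervals the ratio on chromosome 11 was 1.98 (1.82 to 2.17).

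In 1 Mb bins the irradiated list was longer along most of the chromosome. Of 119 bins from 3 to 122 Mb, 114 held an interval, and the irradiated count was higher in 86 of them (75.4%, 66.5 to 83.0), equal in 9 and lower in 19. Measured against equal counts, the excess of irradiated intervals was beyond counting error in 50 bins, and an excess of control intervals in 0. The irradiated list was the longer one genome-wide (16091 against 9866), and neither this nor the number of bins was adjusted for. The chromosome was also chosen by the ratio of these same intervals, so the numbers of bins are a description and no test. Counts per bin ran from 0 to 34 in the control list (median 6) and from 0 to 83 in the irradiated list (median 14). The 20 fullest bins of each list held 46.1% of control and 44.5% of irradiated intervals. Across the 119 bins the counts of the lists had a Spearman correlation of 0.797 and a Pearson correlation of 0.784; neighbouring bins share libraries and domains, so this is a description. With equal numbers of intervals, 55.5% of bins (45.7 to 64.9) had the higher irradiated count.

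**Figure D1:**
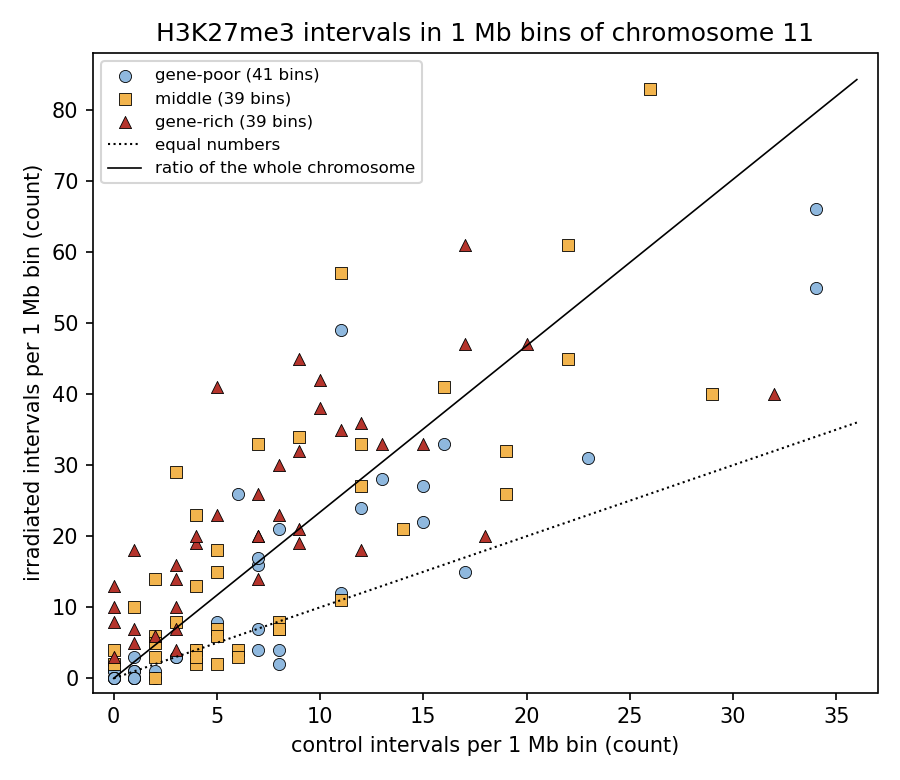
Each point is a 1 Mb bin of chromosome 11, with the number of control intervals on the x axis and of irradiated intervals on the y axis; colours and shapes give the class of gene density, the dotted line equal numbers and the solid line the ratio of the whole chromosome, 2.34. Most gene-rich bins (triangles) lie above the solid line and most gene-poor bins with many control intervals (circles) lie below it.

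The stretch between 67 and 68 Mb was the fullest bin, with 26 intervals from the control list and 83 from the irradiated one. It carries the skeletal myosin heavy chain cluster (Myh1, Myh2, Myh3, Myh4, Myh8 and Myh13), the growth arrest gene Gas7, the gut hormone receptor gene Glp2r and Rcvrn, which encodes the photoreceptor calcium sensor recoverin. The bin from 44 to 45 Mb, with Ebf1, a B cell and olfactory transcription factor gene, and Il12b, which encodes a subunit of interleukin 12, held 34 and 66. The bin from 34 to 35 Mb, with the whole of Dock2, held 34 and 55. Next came 55 to 56 Mb with 22 and 61, 94 to 95 Mb with 17 and 61, and 83 to 84 Mb, the site of Schlafen and Ccl genes, with 32 and 40. The last of these had an irradiated share of 55.6% (43.4 to 67.3), whose interval includes equal counts.

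Shares at either end are given for bins with at least 15 intervals, and the 3 highest and 3 lowest lay apart from the fullest bins. From 75 to 76 Mb, a stretch with 22 genes that include Hic1, Crk and Ywhae, 1 control and 18 irradiated intervals were listed. From 114 to 115 Mb, at the proximal end of the Cd300 receptor cluster, there were 3 and 29, and from 51 to 52 Mb, with the whole of Col23a1, 5 and 41. At the other end, the 3 bins with the lowest irradiated share had 8 control and 7 irradiated intervals: 7 to 8 Mb with Adcy1, Igfbp1 and Igfbp3, 17 to 18 Mb, and 48 to 49 Mb with the interferon-inducible gene Irgm1. Their counts did not differ beyond counting error. Lower shares occurred among bins with fewer intervals, such as 8 control and 2 irradiated intervals from 18 to 19 Mb. Another 9 bins held 44 irradiated intervals and 0 control intervals, among them 4 to 5 Mb with 13, 74 to 75 Mb with 10 and 97 to 98 Mb with 8. In 6 bins the reverse was seen, each with 1 or 2 control intervals. At these depths a bin without a listed interval may carry the mark below the calling threshold.

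The difference between the lists grew with gene density. Bins were split into 3 classes of like size by the number of protein-coding genes with their midpoint in the bin: 0 to 5 (41 bins), 6 to 16 (39 bins) and 17 to 62 (39 bins). Control intervals were spread evenly over these classes, with 7.15, 8.38 and 7.82 per Mb. Irradiated intervals numbered 12.05, 19.2 and 23.7 per Mb. The ratio was thus 1.69 (1.46 to 1.95) in gene-poor bins, 2.28 (2.00 to 2.61) in the middle and 3.03 (2.66 to 3.46) in gene-rich bins. The 3.03 was above the 1.69 beyond counting error. Over the 82 bins with at least 10 intervals, gene number and irradiated share had a Spearman correlation of 0.506.

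**Figure D2:**
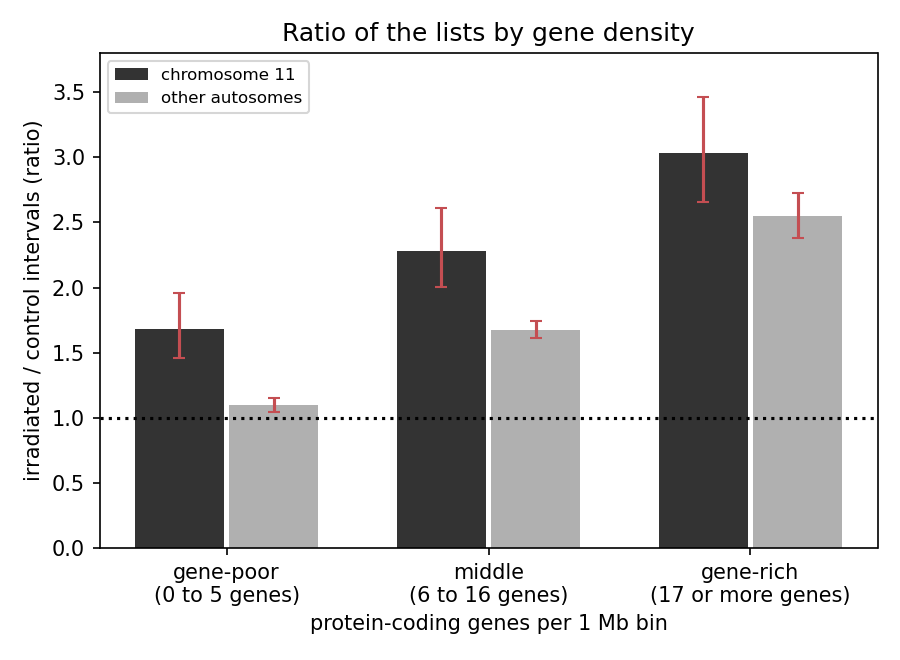
Bars give the ratio of irradiated to control intervals (y axis) in 1 Mb bins by number of protein-coding genes (x axis), for chromosome 11 (dark) and the other autosomes (grey); red lines are exact 95% intervals for counting error and the dotted line is equal numbers. On chromosome 11 the ratio goes from 1.69 to 3.03 with gene density, and on the other autosomes from 1.10 to 2.55.

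The same order held on the other autosomes with the same class limits, at 1.10 (1.05 to 1.15), 1.68 (1.61 to 1.74) and 2.55 (2.38 to 2.72). It did not hold on chromosome 9, with 2.01, 2.81 (2.28 to 3.49) and 2.53 (1.86 to 3.50), although the last 2 intervals overlap. Chromosomes 15 and 6 followed the order, with 0.925, 1.49 and 2.90 and with 1.23, 1.62 and 1.93. Further autosomes were not split by density on their own. Because the chromosome was chosen by its ratio, these values are set side by side without a test. Gene-rich bins made up 32.8% of chromosome 11, which ranked second of 19 autosomes in genes per Mb (13.5) and second in the ratio of the lists. Over the 19 autosomes, genes per Mb and the ratio had a Spearman correlation of 0.649, a description of 2 libraries.

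On the few intervals with a q of at most 0.05 the order was not the same on chromosome 11, with 6 control and 68 irradiated intervals in gene-poor bins (ratio 11.3, 4.95 to 32.0) and 17 and 132 in gene-rich bins (ratio 7.76, 4.67 to 13.7), intervals that overlap. On the other autosomes together the order held at this q, with 3.04 (2.55 to 3.64) in gene-poor, 3.96 in middle and 8.20 (6.12 to 11.2) in gene-rich bins. Background moved with density. A raised background lay under 5.12% of control and 10.3% of irradiated intervals in gene-poor bins, and under 34.4% (29.1 to 40.1) and 42.9% (39.6 to 46.1) in gene-rich bins. Without the intervals over a raised background the ratios were 1.59 (1.37 to 1.86) in gene-poor and 2.64 (2.24 to 3.12) in gene-rich bins, in the same order.

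Over all intervals, summits lay within 2 kb of a gene start less often than chromosome positions at large, and the strongest intervals did not share this. Of all positions between the first and the last gene, 4.42% lay within 2 kb of one of the 1561 RefSeq starts of 1271 protein-coding genes. Of control summits, 25 (2.70%, 1.76 to 3.96) lay that close, and of irradiated summits 68 (3.14%, 2.45 to 3.96). Within 10 kb the shares were 18.8% of positions, 15.8% of control summits (13.5 to 18.3) and 17.6% of irradiated summits (16.02 to 19.3). Among intervals with a q of at most 0.05 the shares within 2 kb were 9.09% of 33 control summits (1.92 to 24.3) and 4.42% of 294 irradiated summits (2.38 to 7.44). Within 10 kb they were 36.4% (20.4 to 54.9) and 18.0% (13.8 to 22.9), so the few strong control intervals lay near starts more often than positions at large. Inside a protein-coding gene lay 47.1% of positions, 36.6% of control summits (33.5 to 39.8) and 41.8% of irradiated summits (39.7 to 43.9). Intervals shared by the lists had their summit inside a gene in 40.9% of control cases (33.99 to 48.1) and 41.9% of irradiated cases (35.0 to 49.1). How well reads could be mapped at these positions was not measured.

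**Figure D3:**
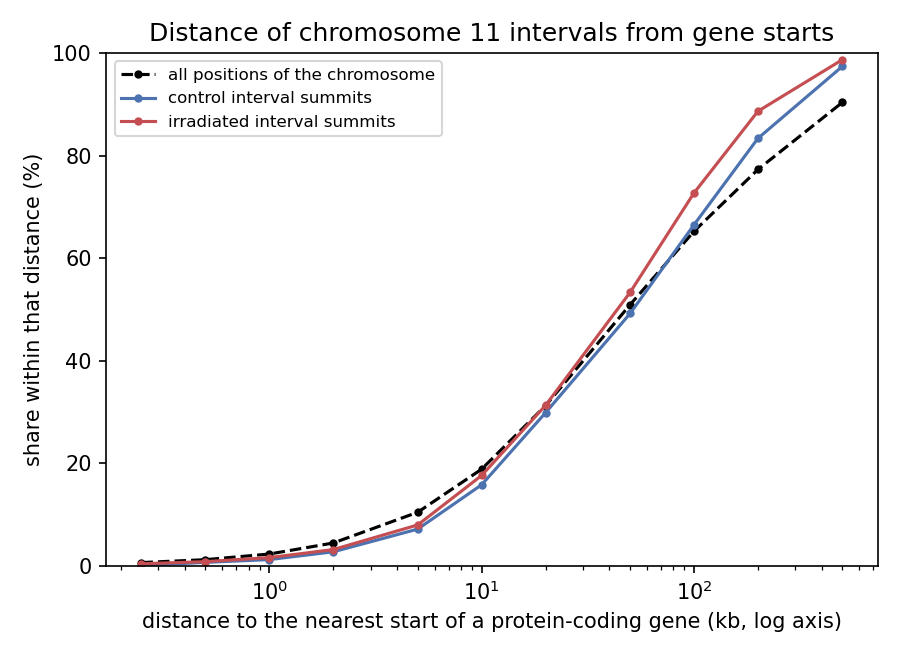
Lines give the share (y axis, %) of chromosome positions and of interval summits that lie within a given distance (x axis, kb, log scale) of the nearest start of a protein-coding gene. Up to 10 kb both lists lie below the dashed line of all positions, with 15.8% of control and 17.6% of irradiated summits against 18.8% of positions.

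Few intervals coincided between the lists, and most unshared control intervals lay within 10 kb of an irradiated one. On chromosome 11, 198 control intervals (21.4%, 18.8 to 24.2) overlapped an irradiated interval by at least 1 bp, and 198 irradiated intervals (9.15%, 7.96 to 10.4) overlapped a control interval. Elsewhere the control share was 21.4% (20.5 to 22.2) and the irradiated share 13.9% (13.3 to 14.5), and with equal control shares the irradiated share follows from the lengths of the lists. Of 33 control intervals with a q of at most 0.05, 16 overlapped an irradiated interval of any strength (48.5%, 30.8 to 66.5). Among the 727 unshared control intervals, 446 (61.3%) had the midpoint of an irradiated interval within 10 kb, at a median distance of 5.54 kb. For the 1967 unshared irradiated intervals the number was 842 (42.8%), at a median of 13.8 kb. Irradiated intervals had a median gap of 7.72 kb, and the share of all positions this close to one was not computed. In 192 pairs that overlapped 1 to 1, the fold ratio of irradiated to control had a median of 1.12 with quartiles of 0.949 and 1.35, and the lowest fold that the lists call at the lowest background differs by 1.14 times.

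Irradiated intervals were more often strung together. When intervals with gaps of at most 10 kb were joined, 1217 irradiated intervals (56.2%) fell into 239 chains of 3 or more, against 248 control intervals (26.8%) in 69 chains. A longer list gives shorter gaps by itself, with a median of 7.72 kb against 27.7 kb. The irradiated chain with the most intervals, 19 from 94823701 to 94867737 with 22.0% of its length covered, ran over the predicted genes Gm11543 and Gm11544. It was followed by 18 intervals in Abr, which encodes a regulator of small GTPases, and by 14 each in Dock2, in Glra1, which encodes a glycine receptor subunit, and at Glp2r and Gsg1l2.

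A gene counted as marked when an interval of any strength lay in it or within 2000 bp. Of the 1602 protein-coding genes of chromosome 11, the control list marked 138 (8.61%) and the irradiated list 211 (13.2%). Over all 21779 protein-coding genes these shares were 6.08% and 8.24%. Both lists marked 99 genes (6.18%, against 3.69% in the genome), the control list alone 39 (2.43%, against 2.40%) and the irradiated list alone 112 (6.99%, against 4.55%). Of the 99 genes marked in both lists, 57 held an interval shared by the lists. Marked genes were longer, with a median of 51.4 kb for both lists, 38.1 kb for the control list alone and 18.8 kb for the irradiated list alone, against 12.7 kb for genes without an interval. With a q of at most 0.05, the control list marked 13 genes (0.811%, against 0.519% in the genome) and the irradiated list 67 (4.18%, against 2.09%).

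The genes with the most intervals were long. Dock2, a Rac activator of leukocytes (34226815 to 34783905), held 26 control and 47 irradiated intervals, 7 of the control ones shared. Tenm2, which encodes a synaptic adhesion protein, held 16 and 34. Slit3, an axon guidance ligand gene (35121456 to 35708507), held 8 and 38, of which 9 irradiated ones had a q of at most 0.05. Fstl4, a follistatin-like gene (52764489 to 53192450), held 5 and 35, and Col23a1, a transmembrane collagen gene (51289679 to 51583925), held 4 and 35 with 0 shared. These last 3 genes thus stood above the ratio of the chromosome. Ebf1 held 10 and 30, and Asic2, which encodes an acid-sensing ion channel of neurons, 11 and 25. Skap1, a T cell adaptor gene (96464570 to 96759622), held 14 and 25, and Myo1d, an unconventional myosin gene (80482126 to 80780055), 11 and 26. Ankfn1 held 15 and 17, counts that differ little, Insyn2b, which lies within the span of Dock2 and shares its intervals, 12 and 20, and Abr 5 and 26.

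**Figure D4:**
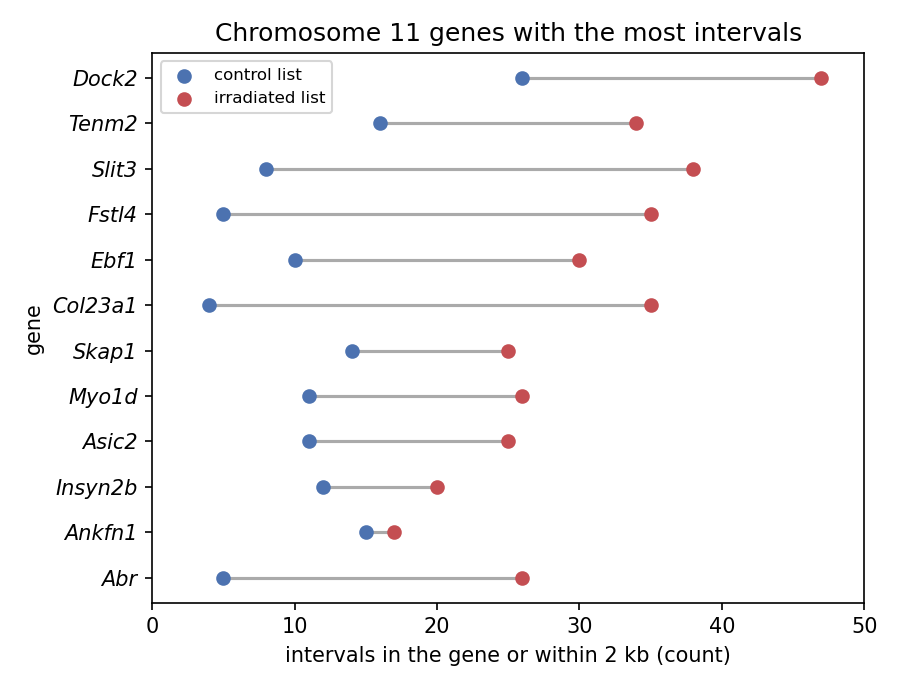
Points give the number of intervals in the gene or within 2 kb (x axis) in the control list (blue) and the irradiated list (red) for the 12 genes of chromosome 11 with the most intervals (y axis). Every gene has more irradiated than control intervals, from 15 and 17 in Ankfn1 to 4 and 35 in Col23a1.

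Genes marked in the irradiated list alone were led by Zpbp2, which encodes a protein of sperm binding to the egg coat (98551097 to 98558665). It held 2 intervals, and the strongest, just outside the gene at 98559305 to 98559846, had 19 reads, a fold of 5.47 at a q of 0.000813. Gsg1l2 held 3, the strongest with 15 reads and a q of 0.00171, and Sec14l3, a lipid-binding protein gene (4064853 to 4078990), held 4, the strongest with 23 reads over a raised background of 2.00 scaled reads and a q of 0.00358. Ccdc42, a gene needed for sperm tail formation (68587037 to 68597951), held 4 with a lowest q of 0.00778. The other 4 had a lowest q of 0.0119: Adcy1, a neuronal adenylate cyclase gene, with 2 intervals, Cd300a, an inhibitory receptor gene of leukocytes, with 4, Tekt3, a tektin gene of sperm tails, with 1, and Lyzl6, a lysozyme-like gene, with 4. By their class these 8 genes had no control interval, which does not show that the mark was absent in control cells.

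Among genes marked in the control list alone, Elobl had the lowest q. It had 1 interval, at 88967929 to 88968653, with 30 reads over a raised background of 3.18 scaled reads, a fold of 4.69 at a q of 7.74e-05, and it lay outside the gene. The next, in Dnah2, which encodes a dynein of motile cilia, had 13 reads and a q of 0.0519. Olfr331, an olfactory receptor gene, had a q of 0.0823. Abca13, a lipid transporter gene (9191942 to 9684871), held 4 control intervals with a lowest q of 0.385, the q that Olfr320, Rab40b, Vmo1 and Olfr315 also had. Of these 8 genes, Elobl was thus the only one to reach a q of 0.05. Its class depends on the gene window. Beyond that window, on the side of its interval, a control interval (88970191 to 88970668) overlapped an irradiated one (88970262 to 88970674). The control one had 38 reads over a raised background of 8.24 scaled reads, at a q of 0.0823. The irradiated one had 35 reads over a raised background of 5.67 scaled reads, at a q of 0.0164.

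Among the genes found in both lists, Sfi1 had the lowest q. It is a gene of a centrosome protein, and it held 8 control and 7 irradiated intervals. It held 3 of the 5 strongest control intervals and 4 of the 5 strongest irradiated intervals of the chromosome. These control ones lay over raised backgrounds of 10.0, 17.6 and 2.16 scaled reads. The irradiated ones lay over raised backgrounds of 13.1, 2.08 and 3.91 and over 0.999, which was not raised. The control interval at 3198944 to 3200046 had 85 reads over a background of 10.0 scaled reads, with a fold of 4.88. The irradiated one at 3179752 to 3180165 had 33 reads over a background of 0.999 scaled reads, with a fold of 9.64. Myo1d had its strongest control interval at 80751464 to 80751844, with 16 reads over the lowest background, a fold of 5.69 at a q of 0.00198. Gabrp, a GABA-A receptor subunit gene of epithelia (33550781 to 33578978), had its lowest q, 0.0157 in control and 0.00220 in irradiated cells, at different sites. Olfr1396 had 0.0157 and 0.0119 at overlapping sites. Ankfn1, Abr and Usp43, a deubiquitinase gene, had lowest q in control cells of 0.00557, 0.0366 and 0.0157, each with 0.0119 in irradiated cells, and Lrrc37a, of a leucine-rich repeat family, had 0.0519 and 0.0119.

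Marked members of developmental and Polycomb gene groups were few in number, in lists of at most 26 genes. Of the 10 Hoxb genes, which pattern the body axis, the control list marked 0 and the irradiated list 1, Hoxb3, with a single interval of 11 reads and a q of 0.400. Other developmental transcription factors had 5 and 7 marked members of 26 (19.2% and 26.9%, against 8.61% and 13.2% of all genes of the chromosome). Among them were Ebf1, Ikzf1, a lymphocyte factor gene, with 2 and 5, Ikzf3 with 7 and 16, Meox1 with 1 and 2, and in the irradiated list also Bcl11a and Tbx21 with 2 each. Ikzf1 had the lowest irradiated q of the list, 0.000173, at an interval with 18 reads and a fold of 6.44, against a lowest control q of 0.385. Ebf1, of 390 kb, alone supplied 10 of the 23 control and 30 of the 70 irradiated intervals of the list. Ikzf1 and Ikzf3 also belong to the leukocyte markers below, so the 2 lists are not separate. Of 8 genes of Wnt ligands and the BMP antagonist Noggin, Wnt3a and Wnt9b had 3 and 1 irradiated intervals and no control interval. The 8 genes of the alpha globin locus, the 7 Polycomb and H3K27 enzyme genes and the 4 imprinted genes had 0 marked members in either list. Lists this small, and the Hoxb list, hold too few genes to set such counts apart from the shares of all genes. The alpha globin genes are also short, with a median of 1.23 kb, and genes of up to 7.65 kb were marked in 5.06% and 8.24% of cases. Of 24 constitutively expressed genes, Taok1 had 1 control interval with a q of 0.831.

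Immune gene groups varied, from 0 of 6 marked immunity-related GTPase genes to 5 of 8 Cd300 receptor genes in the irradiated list. Leukocyte markers had 6 control and 11 irradiated members of 22 (27.3% and 50%, against 8.61% and 13.2% of all genes of the chromosome), with 43 and 84 intervals, of which Dock2 alone supplied 26 and 47. The 5 marked in the irradiated list alone were Itgae, Lpo, Cd7, Sectm1a and Sectm1b, with lowest q from 0.0536 to 0.537. Of 8 Cd300 receptor genes, which encode receptors of myeloid cells for lipids, the control list marked 2 and the irradiated list 5 (25% and 62.5%), with 3 and 15 intervals. Cd300e had 1 control interval with 8 reads and a q of 1, and 4 irradiated intervals, the strongest with 19 reads, a fold of 5.54 at a q of 0.000659. Cd300lf held 2 and 4, and Cd300a, Cd300c2 and Cd300ld held 4, 2 and 1 irradiated intervals only. Of 8 Schlafen genes, which restrict growth and virus replication, Slfn4 had a control interval and Slfn1, Slfn5 and Slfn14 had irradiated intervals (12.5% and 37.5%), with a lowest q of 0.0119 in Slfn1.

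Cytokine and chemokine genes had weak intervals. In a list named for the type 2 cytokine locus, 2 and 3 of 9 genes were marked (22.2% and 33.3%, against 8.61% and 13.2% of all genes). Il12b, with 2 control and 4 irradiated intervals, lies outside that locus (44400063 to 44414677), so these shares are not those of the locus alone. Il5 (53720794 to 53725103) had 1 and 2, and Il3 0 and 1. The lowest q of these genes was 0.0536. Of 11 Ccl genes, which encode chemokines, Ccl4 was marked in both lists, Ccl6 in control cells only and Ccl9 in irradiated cells only, with 1 interval each per list. That is 18.2% of the Ccl genes in each list. Olfactory receptor genes were marked in 11 and 13 of 83 cases, 13.3% and 15.7%, against 8.61% and 13.2% of all genes. They are short, with a median of 0.954 kb, and genes of up to 7.65 kb were marked in 5.06% and 8.24% of cases. Type I keratin genes were marked in 4 and 7 of 27 cases, 14.8% and 25.9%, while 0 of 23 keratin-associated protein genes were marked.

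Neuronal and muscle gene groups held many intervals in few long genes. Of 29 neuronal receptor and channel genes, the control list marked 6 and the irradiated list 10 (20.7% and 34.5%, against 8.61% and 13.2% of all genes), with 48 and 115 intervals. Tenm2 and Asic2 led, followed by Glra1 with 8 and 16 and Gria1, an AMPA receptor subunit gene, with 10 and 11. Rph3al, a gene of vesicle release (75830992 to 75967614), had 0 control and 11 irradiated intervals, and Rbfox3, the gene of the neuronal antigen NeuN, 0 and 5. The list has a median gene length of 33.7 kb, against 14.3 kb on the chromosome, so its members offer more room. Of 6 skeletal myosin heavy chain genes 2 and 3 were marked (33.3% and 50%), with 4 control and 11 irradiated intervals in Myh13, of which 0 and 4 had a q of at most 0.05.

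Of genes tied to glioma and to DNA damage, 3 had an interval. Egfr, a receptor tyrosine kinase gene often amplified in human glioblastoma (16752203 to 16913907), had 4 control and 7 irradiated intervals. Its strongest control interval had 10 reads and a fold of 3.60 with a q of 0.385, and its strongest irradiated one, at another site, had 13 reads and a fold of 4.81 with a q of 0.0119. It was the only marked gene of 11 in its list (9.09% in each, against 8.61% and 13.2% of all genes), which also held Trp53, Nf1, Gfap and Stat3. Of 11 genes of the DNA damage response, Brip1 and Brca1 each had 1 control interval of 9 reads, with q of 0.831 and 1 (18.2% marked), and 0 had an irradiated interval. Axonemal dynein genes were marked in 2 and 1 of 4 cases (50% and 25%, against 8.61% and 13.2% of all genes), with 5 and 9 intervals in Dnah9. Of 5 Abca transporter genes, Abca6 had 3 control intervals and Abca5 and Abca8b had 1 irradiated interval each (20% and 40% marked). These 2 lists are small and of long genes, with median lengths of 119 and 68.4 kb. Genes of 24.8 kb or more were marked in 16.3% and 20.2% of cases.

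**Figure D5:**
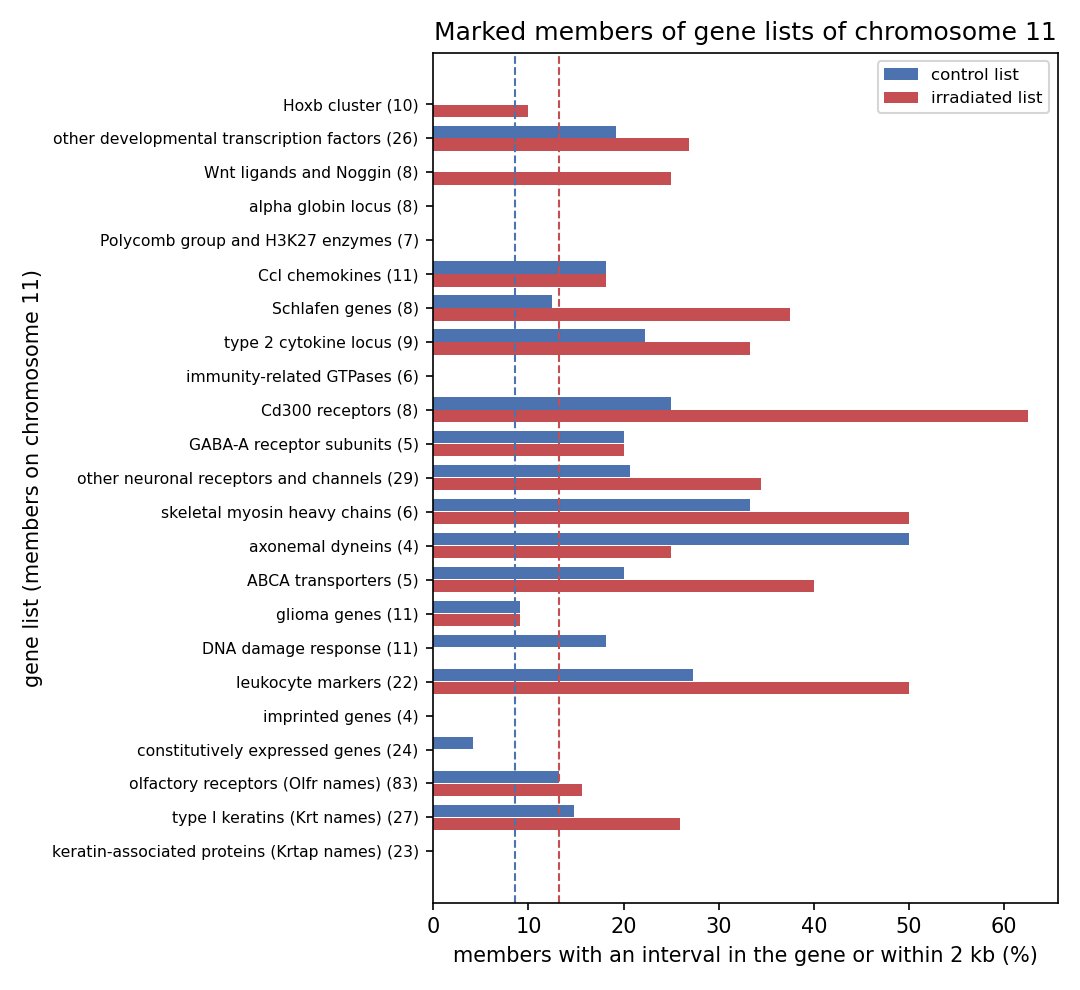
Bars give the share of members (x axis, %) with an interval in the gene or within 2 kb in the control list (blue) and the irradiated list (red), for gene lists of chromosome 11 with the number of members in brackets (y axis); dashed lines are the shares over all genes of the chromosome, 8.61% and 13.2%. Cd300 receptors and leukocyte markers reach 62.5% and 50% in the irradiated list, while Hoxb, alpha globin and Polycomb genes stay at or below 10%. These last lists hold 10, 8 and 7 genes, too few to set their shares apart from the dashed lines.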

How the data were processed

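H3K27me3 ChIP-seq was done in GL261 cells, with reads of 150 bp per the labels' protocols. BWA, deepTools and mm10 are named without versions or roles, per the submitters' processing notes. No source used here names the peak caller. The authors deposited 1 list per library, not pooled. Positions (other values, in bp) were used as deposited. In the deposited lists the score equals 10 times the −log10 p, rounded down. Each summit also has the authors' fold (a ratio to background), −log10 p-value and, adjusted genome-wide, −log10 q-value. The largest p was 0.00495 and 0.00499, so weak intervals were kept.

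Lines with a further summit of an interval were merged with it, keeping the lowest p. ChIP reads and background were recovered from fold and p with a Poisson model, checked on simulated lists: whole-number solutions within 0.002 were found for 100% of lines, with 1 read worth 0.620 and 0.554 scaled reads and lowest backgrounds of 0.918 and 0.704. In that model the fold is the scaled reads plus 1, divided by the scaled background plus 1. Reads are given unscaled and backgrounds scaled. Library totals are unknown. An interval was assigned to a bin by its midpoint. Genes came from RefSeq (GRCm38.p6), without 7 entries of chromosome 11 placed before 3 Mb, where no interval lies; 1271 of 1602 genes had a promoter entry. Python 3.11.15, scipy 1.17.1 and pandas 2.3.3 were used. Error intervals are Clopper-Pearson; those of ratios come from the binomial share.

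The members and the 20 gene lists (222 entries, all matched) were chosen with earlier results of these data known; olfactory and keratin groups were taken by name. Named genes were the 12 with the most intervals, the 8 of each class with the lowest q and up to 4 marked members per list, without Gm and Rik names. Some members are not reported here. Further members are named to complete short counts, and bins other than the 6 fullest and the 3 at each extreme of share were chosen after their values were seen. Alternatives were a q of at most 0.05, equal list lengths, merging within 1000 bp, a reciprocal overlap of 50%, bins of 2 Mb, density by genic share and windows of 0 and 5000 bp. Intervals over a low background and a −log10 p of at least 5 were added after the data were seen.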

Additional observations from a re-analysis of the deposited data

How the results depend on the processing

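No paired analysis was possible because each condition had 1 library. Of 52 values under alternatives, 27 stayed within counting error (for counts of genes, within 1.5 times) and 25 moved; no ratio fell below 1. With a q of at most 0.05 required in both lists, the ratio of the lists was 8.91, in gene-rich bins 7.76 and in gene-poor bins 11.3. The shared parts, with both partners at that q, were 15.2% of control and 1.70% of irradiated intervals. The bins with more irradiated intervals were 93.6%, and marked genes numbered 9 for both lists, 4 for control alone and 58 for irradiated alone. With equal list lengths the ratios were 1.40, 1.79 and 1.06 (0.899 to 1.25), the shared parts 14.8% and 10.5%, and the bins with more irradiated intervals 55.5%. Merging gave a ratio of 2.13 and a shared irradiated part of 10.7%. A reciprocal overlap of 50% gave shared parts of 9.84% and 4.20%. Without intervals over a raised background the ratio was 1.98, in gene-rich bins 2.64, and the shared control part 17.4%. With only intervals of −log10 p 5 or more, the ratios were 7.66, 6.42 in gene-rich and 10.6 in gene-poor bins. Gene-rich bins had the higher ratio in all settings except those with a q of at most 0.05 and a −log10 p of at least 5, which leave 33 and 71 control intervals; the cause was not tested. Counts of 9 to 13 reads at most summits limit every single interval, and libraries without replicates limit every difference.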

Other observations

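Stretches without intervals were few. From 3 Mb on, 5 bins held 0 intervals in both lists. Those from 13 to 14 Mb and from 38 to 40 Mb hold 0 protein-coding genes.

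Of 83 RefSeq miRNA hairpins of the chromosome, 0 overlapped an interval of either list, and 1 lay within 2000 bp of an irradiated interval. Among the 6 chains with the most intervals in each list, in 2 control chains and 1 irradiated chain no protein-coding gene was met. One of them, from 44317683 to 44379303 upstream of Il12b, held 13 irradiated and 7 control intervals. Long genes, of 24.8 kb or more, were marked in 16.3% of cases in the control list (13.3 to 19.7) and 20.2% in the irradiated list (16.9 to 23.9). Short genes, of up to 7.65 kb, were marked in 5.06% (3.36 to 7.27) and 8.24% (6.05 to 10.9).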
